A study of Mus musculus with 11 samples.

Results

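Sik3, Ube4a, Nlrx1 and Tmprss13 are 4 genes on mouse chromosome 9 for which protein-altering exome variants were listed in more than one KT tumour. They were chosen by the presence of listed variants, as the genes of this chromosome, olfactory receptor genes aside, with records in 2 KT tumours. A record is a variant listed for a tumour and a gene. They are 4 of the 558 genes in the variant table, and their 9 records are part of 739. Every record of the 4 genes is described. Which tumours they fell in was the basis of the choice, so those counts are a description and carry no test.

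The tumours were pancreatic ductal adenocarcinomas that grew from acinar cells, 1 per mouse. The 4 KPT mice carried the alleles of the KT mice and Trp53fl/fl, floxed alleles of the gene for the p53 tumour suppressor. The 7 KT mice carried the engineered alleles that all mice shared, a Rosa26 tdTomato reporter and Ptf1aCreER among them. Ptf1aCreER is a Cre recombinase under control of the acinar gene Ptf1a that acts only once tamoxifen is given. Tamoxifen was given by mouth to all mice when 8 to 10 weeks old, as 3 daily doses of 5 mg, and the mice were kept until they fell ill. Tumour DNA was bulk, and the share of tumour cells in it was not given in the sources used here. The Ptf1a control and the tamoxifen step limit recombination to acinar cells, while exome reads came from whatever cells the piece held.

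SIK3 is a salt-inducible kinase of the AMPK-related family that is switched on by the kinase LKB1. It phosphorylates the CRTC coactivators and the class IIa histone deacetylases, which keeps them in the cytoplasm. UBE4A is a U-box ubiquitin ligase that lengthens ubiquitin chains, and its U box lies at the C-terminal end. NLRX1 is a member of the NLR family of innate immune receptors that resides at mitochondria and has been described as a brake on MAVS-dependent interferon signalling. TMPRSS13 is a type II transmembrane serine protease, a class anchored in the cell membrane with the N terminus in the cytosol and the protease domain outside the cell. These descriptions name no pathway common to the 4 genes, and pathway membership was not examined. What the choice used is their place on the chromosome and in the table.

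Records of the 4 genes were listed in 0 of 4 KPT tumours and 2 of 7 KT tumours, and both tumours with records had all 4 genes. Over the whole table, 1.43% of listed genes had records in 2 KT tumours, and among the 63 listed genes of chromosome 9 it was 9.52%. The choice of genes fixed these counts. KT tumour 1 held 4 member records, 1 in each gene, and KT tumour 3 held 5, with 2 in Sik3. All 9 were missense changes, with a listed genotype of 1 reference and 1 variant allele that was not phased. Of the 89 other chromosome 9 records, 86 were missense too, and most had the same genotype.

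The same held for the chromosome as a whole, in that all 98 records of chromosome 9 came from KT tumours 1 and 3. KT tumour 1 had 33 of its 225 records there (14.7%), and KT tumour 3 had 65 of its 92 (70.7%). The other 9 tumours, the 4 KPT tumours and KT tumours 2, 4, 5, 6 and 7, had 0 records on this chromosome. No other chromosome held as many records, and the 19 others had records in a median of 5 tumours, with a range of 1 to 10. Only chromosome 8, with 2 records in 2 tumours, and X, with 13 records in 1 tumour, were listed in as few. Depth differed between libraries, with a median at listed sites of 11 to 38 reads in KPT tumours and 15 to 58 reads in KT tumours. KT tumours 1 and 3 had medians of 32 and 41 reads. The table gives no depth at unlisted sites and starts at a depth of 10 reads and a listed allele fraction of 25%, so a tumour without a record is not shown to lack the variant.

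**Figure D1:**
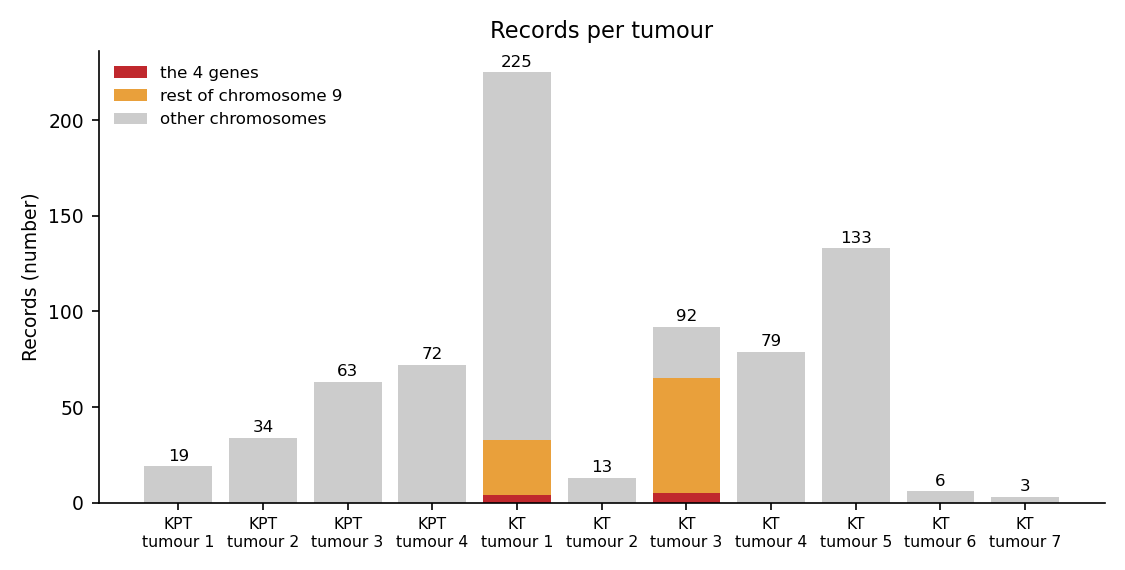
Number of listed records in each of the 4 KPT and 7 KT tumours, split into Sik3, Ube4a, Nlrx1 and Tmprss13 (red), the rest of chromosome 9 (orange) and other chromosomes (grey), with the total above each bar. Chromosome 9 appears only in KT tumour 1 (33 of 225 records) and KT tumour 3 (65 of 92).

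The codons below show where the tumours differed within each gene. They are given on the coding strand as the authors' annotation lists them, with the changed base in capitals. Amino acid positions count from the first residue of the protein, and genome positions are on GRCm38, which the submitters' processing notes name. The Ensembl identifiers are those of the table and the gene spans are from RefSeq on GRCm38.p6. All 9 positions lay in coding exons and within the RefSeq span of their gene. Protein sequences were not used here.

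Sik3 (ENSMUSG00000034135, plus strand) spans chr9:46012820-46224194. KT tumour 1 had S1335N at position 46221115 in exon 24 of 25, where codon aGc read aAc. KT tumour 3 had V970L at 46211812 (Gtt read Ctt) and T992A at 46211878 (Acg read Gcg), both in exon 21. The nearest Sik3 sites of the different tumours were 9237 bases apart. The pair within KT tumour 3 lay 66 bases apart, and the unphased genotypes do not say whether both were on the same chromosome copy. The kinase domain of SIK3 lies in the N-terminal part of the protein, and all 3 changes were towards the other end by exon order.

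Ube4a (ENSMUSG00000059890, minus strand) spans chr9:44923127-44965615. KT tumour 1 had T518M at 44944880 in exon 10 of 20, where aCg read aTg. KT tumour 3 had R89C at 44953029 in exon 3, where Cgc read Tgc. The sites were 8149 bases apart.

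Nlrx1 (ENSMUSG00000032109, minus strand) spans chr9:44252713-44268599. KT tumour 1 had F37V at 44265195 in exon 3 of 10, where Ttt read Gtt. KT tumour 3 had Y52H at 44264778 in exon 4, where Tac read Cac. These sites were 417 bases apart and altered residues near the N terminus, the end of NLRX1 that carries its mitochondrial targeting sequence.

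Tmprss13 (ENSMUSG00000037129, plus strand) spans chr9:45318988-45347581. KT tumour 1 had L72P at 45328610, where cTa read cCa. KT tumour 3 had T44A at 45328525, where Aca read Gca. Both sites lay in exon 2 of 13 and were 85 bases apart, the closest of the 4 genes. Both residues are in the N-terminal part, away from the protease domain at the C-terminal end.

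No position was thus listed in both tumours, for any of the 4 genes or elsewhere on chromosome 9 (0 shared positions). At every record of the table the authors' tally of samples sharing the variant stood at 1. Whether variants seen in several tumours were removed before deposit is not given in the sources used here, and such a step would fix the 0 in advance. Of the 9 base changes, 7 were transitions and 2 were transversions, namely Sik3 V970L in KT tumour 3 and Nlrx1 F37V in KT tumour 1. This split was not compared with that of other records.

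The variant was on a sizeable share of reads at every site. Shares are given with 95% Wilson intervals, which cover counting error only, since reads may be copies of the same molecule. In Sik3, 19 of 49 reads of KT tumour 1 carried S1335N (38.8%, interval 26.4% to 52.8%). Of 58 reads of KT tumour 3, 27 carried V970L (46.6%, 34.3% to 59.2%), and 22 of 57 reads carried T992A (38.6%, 27.1% to 51.6%). The 3 Sik3 intervals overlapped throughout, and these were the 3 deepest sites of the 4 genes.

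In Ube4a, 14 of 29 reads of KT tumour 1 carried T518M (48.3%, 31.4% to 65.6%), and 11 of 17 reads of KT tumour 3 carried R89C (64.7%, 41.3% to 82.7%). R89C had the highest share of the 9 records and the lowest depth, so its interval was wide, and it overlapped that of T518M.

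In Nlrx1, 10 of 21 reads of KT tumour 1 carried F37V (47.6%, 28.3% to 67.6%), and 17 of 37 reads of KT tumour 3 carried Y52H (45.9%, 31.0% to 61.6%). This was the gene with the closest shares in the tumours, 1.67 points apart (95% Newcombe interval -23.2 to 26.6).

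In Tmprss13, 16 of 46 reads of KT tumour 1 carried L72P (34.8%, 22.7% to 49.2%), and 9 of 18 reads of KT tumour 3 carried T44A (50%, 29.0% to 71.0%). L72P had the lowest share of the 9 records and was the only one whose interval did not take in 50%, the share that a variant on one of a pair of chromosome copies gives in unmixed DNA. The other 8 intervals held 50%. So did 77 of the intervals at the 89 other chromosome 9 records, with 11 below 50% and 1 above.

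**Figure D2:**
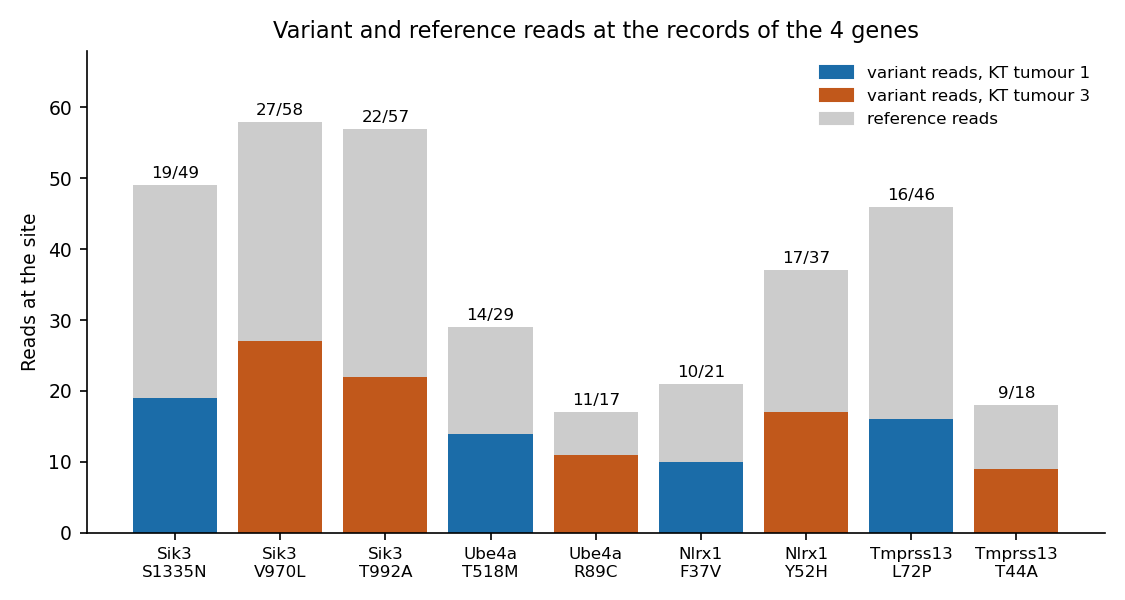
Reads at the 9 sites of the 4 genes, with variant reads coloured by tumour (blue KT tumour 1, orange KT tumour 3) below reference reads in grey, and variant reads over depth written above each bar. Depth runs from 17 reads at Ube4a R89C to 58 at Sik3 V970L, and the variant part is the larger one only at Ube4a R89C.

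The allele fraction listed by the authors stayed close to the read share, between 0.176 and 2.09 points away from it. It ran from 36.1% at Tmprss13 L72P to 47.9% at Nlrx1 F37V in KT tumour 1. It ran from 39.6% at Sik3 T992A to 66.8% at Ube4a R89C in KT tumour 3. Variant reads came from both read-pair orientations, F1R2 and F2R1, at all 9 sites. Summed over the sites, 79 variant reads had the first orientation and 65 the second. The least even was Sik3 S1335N, with 14 F1R2 and 5 F2R1 variant reads beside 12 and 18 reference reads.

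Pooled over the 4 genes, 59 of 145 reads of KT tumour 1 were variant reads (40.7%, Wilson interval 33.0% to 48.8%), against 86 of 187 reads of KT tumour 3 (46.0%, 39.0% to 53.1%). The difference was -5.30 points, with a 95% Newcombe interval of -15.8 to 5.43 points that includes no difference. Per gene, the share of KT tumour 1 minus that of KT tumour 3 was -3.83 points in Sik3 (interval -19.2 to 12.6), -16.4 in Ube4a (-41.1 to 12.7) and -15.2 in Tmprss13 (-39.4 to 10.2), beside the 1.67 points of Nlrx1. None of the 4 differences was larger than its counting error. With 1 animal on each side there is no test of the tumours, and sites of the same tumour are not replicates.

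Set against the other chromosome 9 records of their own tumour, the 4 genes had a lower pooled share in KT tumour 1 and a slightly higher one in KT tumour 3, both within counting error. In KT tumour 1 the pooled share was 40.7% at the 4 member records and 48.6% at the 29 others (969 of 1994 reads, interval 46.4% to 50.8%). That is a difference of -7.91 points with an interval of -15.9 to 0.519, which includes no difference. In KT tumour 3 it was 46.0% at the 5 member records and 45.0% at the 60 others (1554 of 3452 reads, 43.4% to 46.7%), a difference of 0.972 points with an interval of -6.21 to 8.31. The difference in KT tumour 3 was not stable in sign, and that in KT tumour 1 was not stable in whether its interval included 0. In KT tumour 3 the sign turned under 5 of 11 alternatives, as in the comparison without olfactory receptor genes (-1.50 points). In KT tumour 1 the difference stayed below 0 under every alternative, from -9.80 points without Ube4a to -5.16 without Tmprss13. Its interval no longer included 0 without Ube4a (-18.5 to -0.452) or without Nlrx1 (-9.08 points, -17.5 to -0.0159).

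Single records showed the same spread. By listed allele fraction, the records of KT tumour 1 stood at places 20 (Nlrx1), 24 (Ube4a), 29 (Sik3) and 31 (Tmprss13) from the top among the 33 on the chromosome. In KT tumour 3 Ube4a R89C was the highest of 65, and the others stood at places 14 (Tmprss13 T44A), 37 (Nlrx1), 39 and 56 (Sik3 V970L and T992A). The other records of KT tumour 1 ran from 31.4% at Olfr922 S137F to 68.2% at I160T of Siae, a sialic acid esterase gene, with a median of 50%. Those of KT tumour 3 ran from 32.4%, at Olfr902 R23L and R227Q of Olfr970, to 66.3% at A196T of Plet1, with a median of 46.5%. The member records therefore lay within the range of the other records of their tumour, except Ube4a R89C, which at 66.8% was above the 66.3% of Plet1. Their median depth was 37.5 reads against 61 at the other records in KT tumour 1, and 37 against 51 in KT tumour 3. That direction rested on the olfactory receptor records, at medians of 82 and 84 reads in KT tumours 1 and 3. It turned without them, when the medians of the other records were 35 and 28 reads, below those of the 4 genes.

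**Figure D3:**
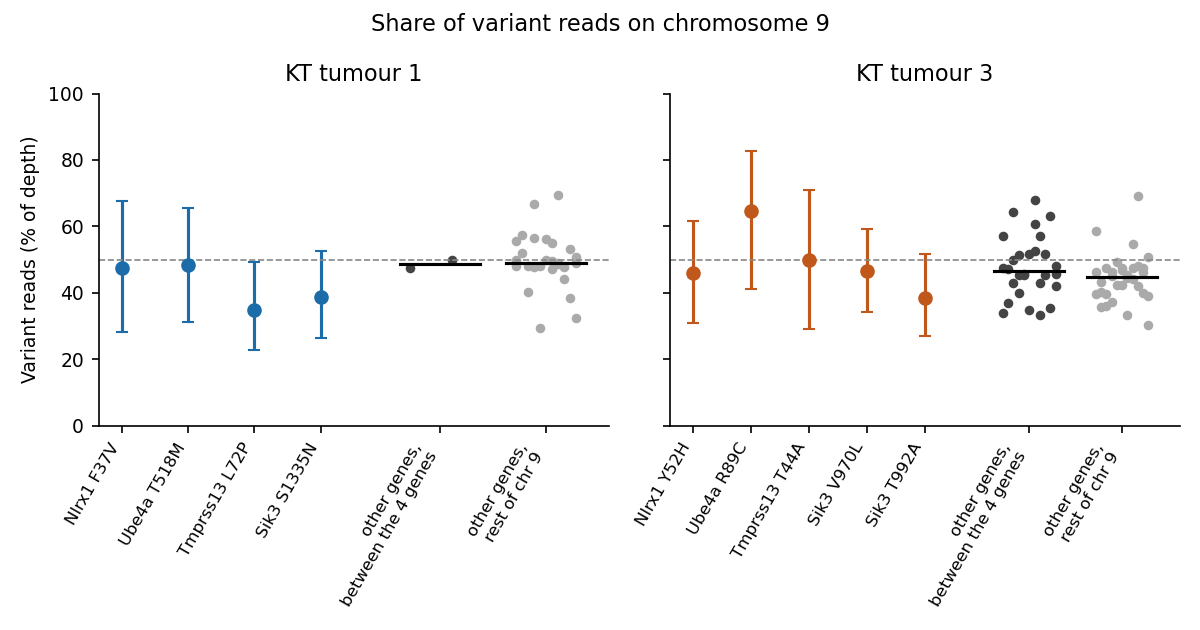
Share of variant reads at each site of the 4 genes with 95% Wilson intervals (coloured), beside single chromosome 9 records of other genes between the 4 genes (dark grey) and elsewhere on the chromosome (light grey) in KT tumour 1 (left) and KT tumour 3 (right). Black bars are medians and the dashed line is 50%; Tmprss13 L72P (34.8%) is the coloured point whose interval stays under the line.

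Away from chromosome 9, listed fractions ran higher in KT tumour 3, while in KT tumour 1 their median was close to that on the chromosome. The pooled share at the 192 records of KT tumour 1 on other chromosomes was 51.6% (interval 50.4% to 52.8%), with listed fractions from 25% to 98.5% and a median of 48.1%, beside the 50% of its other chromosome 9 records. At the 27 records of KT tumour 3 on other chromosomes it was 77.6% (74.6% to 80.4%), with a median listed fraction of 93.5%. These 27 were uneven, from 25% to 98.7%, with 17 over 60% and 7 under 40%. The 192 records of KT tumour 1 were spread too, with 37 over 60% and 54 under 40%. The intervals of these pooled shares, and of the differences that follow, do not cover that spread. The pooled shares of the 4 genes were lower than those on other chromosomes. The differences were -10.9 points in KT tumour 1 (interval -18.7 to -2.69) and -31.6 points in KT tumour 3 (-39.1 to -23.9). No record of chromosome 9 in either tumour had a listed fraction above 68.2%. The intervals cover counting error at these sites of single animals and do not speak of other mice.

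The 4 genes lay close together, in a part of chromosome 9 that held all its other records except Fbxw19 S413G. The records of KT tumour 3 ran from 37711428 to 50504417. Those of KT tumour 1 ran from 37342479 to 46221115, with Fbxw19 apart at 109481616. The outermost member records, Nlrx1 Y52H and Sik3 S1335N, were 1.96 Mb apart (chr9:44264778-46221115), in the order Nlrx1, Ube4a, Tmprss13 and Sik3. RefSeq places 50 protein-coding genes in or across this stretch. KT tumour 1 had records in 6 of them (12%), the 4 members and 2 more, the trehalase gene Treh (D367N) and the cell adhesion gene Dscaml1 (K1727N). KT tumour 3 had 33 records in 19 of them (38%), 15 of these genes not being members.

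The stretch was therefore more densely listed in KT tumour 3, and the shared genes were a different part of each tumour's list. The 4 members were 66.7% of the 6 genes listed there for KT tumour 1 and 21.1% of the 19 listed for KT tumour 3. Member records set the ends of the stretch, so all 4 lay in it by construction and these shares are a description. Over the whole chromosome 6 genes were listed in both tumours, which is 21.4% of the 28 genes of KT tumour 1 and 14.6% of the 41 genes of KT tumour 3. Without olfactory receptor genes it was 4 of 15 (26.7%) and 4 of 24 (16.7%).

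Neighbouring records came from other genes at short distances. In KT tumour 1 the closest to a member was T10K in Pdzd3, 14.2 kb from Nlrx1 F37V (14 of 43 reads, listed at 31.6%). The closest one in KT tumour 3 was L347V in the transporter gene Abcg4, 14.2 kb from Nlrx1 Y52H on the other side (9 of 19 reads, listed at 50%). Nlrx1 thus had a close listed neighbour in each tumour, in different genes.

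Around Ube4a and Tmprss13 the nearest record was closer in KT tumour 3. Ube4a R89C lay 94.3 kb from S186R in Mpzl2 and 131 kb from S2314P in Kmt2a, a histone methyltransferase gene, whereas Ube4a T518M of KT tumour 1 had Treh D367N 260 kb away as its nearest. Tmprss13 T44A lay 62.0 kb from H94R in Il10ra, the gene of an interleukin-10 receptor chain, and 444 kb from I1068N in Cep164, a ciliary protein gene. In KT tumour 1 the neighbours of Tmprss13 L72P were Ube4a T518M, 384 kb away, and Dscaml1 K1727N, 421 kb away.

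Sik3 was the last listed gene of the stretch in both tumours, and its record in KT tumour 1 had set that end. In KT tumour 1 the next record beyond it was S413G in Fbxw19, 63.3 Mb further on, and Dscaml1 lay 471 kb before it. In KT tumour 3 the next record beyond was F384Y in Nxpe2, 2.11 Mb further on, and H66R in Rnf214, a RING finger gene, lay 312 kb before. On the low side of Nlrx1, KT tumour 3 had an in-frame deletion in the adhesion gene Mcam 124 kb away (19 of 48 reads).

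**Figure D4:**
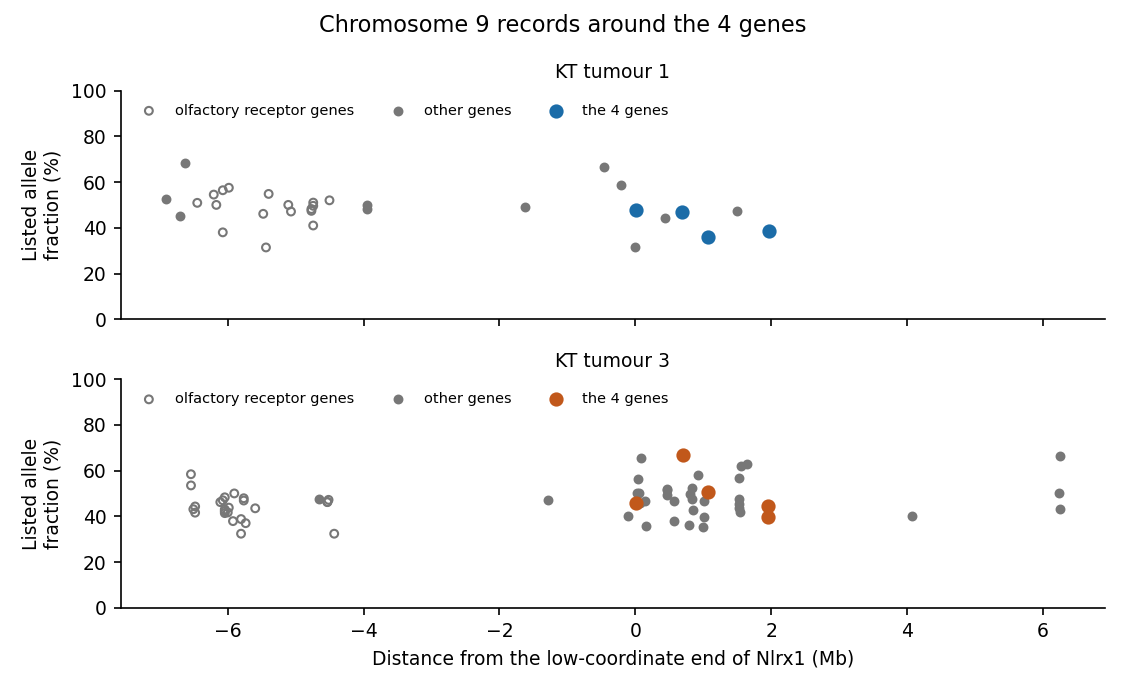
Listed allele fraction of chromosome 9 records against distance from the low-coordinate end of Nlrx1, in Mb, for KT tumour 1 (top) and KT tumour 3 (bottom), with the 4 genes coloured, olfactory receptor genes as open circles and other genes filled grey. In both tumours the records gather at the olfactory receptor genes and again around the 4 genes, in KT tumour 1 largely through the 4 genes themselves. Between the outermost member records, other genes have 2 records in KT tumour 1 and 28 in KT tumour 3. The Fbxw19 record of KT tumour 1 at 65.2 Mb is outside the plotted range.

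By the pattern of tumours with a record, the genes most like the 4 members were Olfr891 and Olfr895, with a Jaccard index of 1 over 11 tumours. Both are olfactory receptor genes of the same chromosome, a class that the choice of the 4 genes left out. The index uses the presence of records by tumour, as the choice did. On chromosome 9 only olfactory receptor genes could therefore reach 1, and this likeness is a description. Of the other listed genes, 212 had an index of 0.5, 5 had 0.333 and 335 had 0. In KT tumour 1 Olfr891 had N271K (20 of 52 reads) and I192T (46 of 82), and Olfr895 had a frameshift at residue 308 (27 of 47). The records of KT tumour 3 were L71F in Olfr891 (26 of 56) and S2P in Olfr895 (26 of 59). Here too the changes differed between the tumours and the variant reads made up 38.5% to 57.4% of the depth. The records of Olfr891 and Olfr895 in KT tumour 1, like all 4 member records there, were not marked by the authors as poorly mappable, while 12 of the 33 chromosome 9 records of that tumour were. The mark was empty for KT tumour 3.

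Among genes that work with the members, or belong to the same families, records were found for 5 of the 77 genes in 4 lists (6.49%), against 2.48% of the 21900 protein-coding gene symbols of the RefSeq table. The lists were drawn up with earlier results of these data known, so these shares are a description and were not tested. Among the 20 genes around SIK kinases, the class IIa histone deacetylase gene Hdac4 alone had records, P227H in KPT tumour 4 (3 of 12 reads) and A569S in KT tumour 5 (10 of 20 reads). Neither tumour had a Sik3 record.

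Of 11 genes of U-box ligases and partners of the ATPase p97, Ubox5 alone was listed, with Y75C in KT tumour 1 (26 of 58 reads). That tumour thus had changes in 2 U-box genes, Ube4a on chromosome 9, which was chosen for its records, and Ubox5 on chromosome 2. Of 27 NLR genes and partners of NLRX1, Nlrp10 had Q562K in KT tumour 3 (22 of 68 reads) and Naip6 had S538I in KT tumour 4 (15 of 37 reads), the second marked as poorly mappable. Mavs itself had 0 records.

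Of 19 genes of type II transmembrane serine proteases and their inhibitors, Tmprss4 alone was listed, with R190H in KT tumour 3 (12 of 19 reads, 63.2%, interval 41.0% to 80.9%, listed at 57.9%). The Tmprss4 record lies at position 45179411 of chromosome 9, between Ube4a and Tmprss13. KT tumour 3 therefore had changes in 2 proteases of this family in the same stretch, and KT tumour 1 in 1 of them. Tmprss13 was chosen for its records, and KT tumour 3 had records in 38% of the protein-coding genes of that stretch.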

How the data were processed

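Exome libraries of tumour DNA were made with a linked-read kit and captured with mouse all-exon baits, per the labels' protocols. GATK, HISAT2 2.0.4, mm10 and GRCm38 are named in the submitters' processing notes, with no role or order. Caller filters and any normal tissue are not given in the sources used here. Per the file headers, the deposited table has DP in counts (reads at a site), AF as a fraction (printed here in percent), and other columns with reference and variant reads as pairs, positions, a tally of samples sharing the variant and a mappability mark. The mark was empty for 108 of 739 records, those of KT tumours 2, 3 and 7. Reference and variant reads summed to DP in all 739. Tumours were matched by library name.

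Variant reads over depth were computed per record and pooled over records, with Wilson intervals and, for differences, Newcombe intervals (95%), both checked on simulated data. No test was made, since the choice of genes used their presence by tumour and each value rests on 1 animal. The members and lists were chosen with earlier results of these data known. Named besides the members were the genes with the most similar tumour pattern, the nearest listed neighbours, the chromosome 9 extremes of allele fraction and list genes with a record. Alternatives were minimums of depth (20 reads) and variant reads (5), the listed fraction, 1 record per gene, leaving out each gene, tumour or poorly mappable record, and other comparison records. An engineered allele that all mice shared, and variants at the engineered loci, are not reported here. Computation was in Python 3.11.15 with SciPy 1.17.1, pandas 2.3.3, NumPy 2.4.6 and Matplotlib 3.10.9.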

Additional observations from a re-analysis of the deposited data

Results flagged for a closer look

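The share of a tumour's records that lay on chromosome 9 was 70.7% in KT tumour 3 (65 of 92 records), far from the other 6 KT tumours, where it was 14.7% in KT tumour 1 and 0% in the remaining 5. The measure was the gap to the next tumour over the range of the group. Chance sets apart about 1 in 20 groups by it in general, a rate not checked for a group with 5 values of 0%. The choice of genes used which tumours had records, so the flag is a description and no test. Of the 65 records, 5 were in Sik3, Ube4a, Nlrx1 and Tmprss13.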

How the results depend on the processing

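The number of member records in KT tumour 3 was 3 with a depth of at least 20 reads, which removed Ube4a R89C (17 reads) and Tmprss13 T44A (18 reads), and to 3 without Sik3, against 5 with all. The number of KT tumours with a member record was 1 to 2 when each tumour was left out, 1 without KT tumour 1 or KT tumour 3. Of the 74 values recomputed under alternatives, the other 70 stayed within the interval, or within 1.5 times the count, of the reported value. Some of these could not move. Leaving out a tumour without a member record cannot change the count, and the minimum of 5 variant reads removed no member record. In KT tumour 3 the difference from other chromosome 9 records was below 0, at -1.33 points with a depth of at least 20 reads, -0.900 without Ube4a, -1.50 without olfactory receptor genes, -1.74 within 2 Mb and -2.26 within the stretch between the outermost members, the last chosen after seeing the data, and each of these intervals included 0. The other 6 values there stayed above 0. The alternative without poorly mappable records gave no value for KT tumour 3, whose mark was empty. No paired analysis was possible because each tumour came from a different mouse and no normal tissue is given in the sources used here. Depths of 17 to 58 reads limit what a single site can show.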
